A study of Mus musculus with 5 samples.

Results

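Integrins, the laminins they bind and the other core proteins of the basement membrane are described here in the kidney cortex of mice with and without Fnip1. Genes were taken by symbol: the Itga and Itgb subunits (with Itgae, Itgal and Itgav), the Lama, Lamb and Lamc chains, Nid1, Nid2, Fn1, Vtn, Npnt, Hspg2, Agrn and Dag1. This gave 42 of 24421 gene symbols, among them 23 integrin subunits and 11 laminin chains. RNAseq was available for 3 Fnip1 null mice (Fnip1-/-, numbers 8637, 9121 and 9210) and 2 wildtype mice (Fnip1+/+, numbers 9055 and 9056), each a separate animal with its own library of flash-frozen cortical kidney tissue. The sample labels give the controls as Fnip1+/+, which is followed here, although the study's text also calls the RNAseq controls Fnip1+/-, so a heterozygous control cannot be told apart. The mouse number in the title of 9210 differs from the number on its data table, and the title was followed. All were on the C57BL6J background and none was treated. The null allele came from ENU mutagenesis and is carried in every cell of the animal, immune cells included, and the labels give neither age nor sex.

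Integrins are receptors made of one alpha and one beta chain that hold cells to the matrix around them or to other cells. The beta chain sets the partners: Itgb1 pairs with most alpha chains, Itgb4 with alpha 6, and Itgb2 and Itgb7 with chains carried by leukocytes. Laminins are trimers of an alpha, a beta and a gamma chain that polymerize into the sheet on which epithelial and endothelial cells sit. Nidogens and perlecan link this sheet to the collagen IV network, and agrin and dystroglycan tie it to the cell. In the kidney, the mature glomerular basement membrane is built from the trimer of Lama5, Lamb2 and Lamc1, whereas Lama1 and Lamb1 are typical of developing and tubular basement membranes.

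Fnip1 itself measured 21, 16 and 16.9 normalized CPM (counts relative to the library total after TMM scaling) in mice 8637, 9121 and 9210, and 51.7 and 48.6 CPM in the wildtype mice. Values per mouse follow this order throughout: Fnip1 null 8637, 9121, 9210, then wildtype 9055, 9056. It fell by 1.48 on the log2 scale (SE 0.14, adjusted p = 0.0313, edgeR quasi-likelihood test), which matched the labels. Counts on genes were between 15799114 and 19132145 per mouse, so that 3 counts correspond to 0.158 to 0.186 CPM. Mouse 9121 stood apart in Xist, with 314 CPM against at most 1.41 in the other mice, and had 0 counts for Ddx3y against 42.8 to 52.1 CPM. It was the only mouse with this pattern, so sex was not balanced between the genotypes. Proximal tubule, the main tissue of the cortex, was strongly present, with 6 of its markers summing to 8237 to 12211 CPM. The tissue is a mixture of cell types, and fewer cells of a type and less RNA per cell cannot be told apart in any value below.

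Of the 42 genes, 39 had enough counts to be tested, and none of the 39 had a count under 10 in any mouse. Itga2, Itga11 and Vtn were left out for low counts, with at most 24, 10 and 5 counts in a mouse. Most of the tested genes lay on the higher side in Fnip1 null tissue: 28 of 39 had a positive log2 fold change (71.8%, against 50.5% of all 13874 genes tested). Their median was 0.29, against 0.0031 over all genes. All 3 Fnip1 null mice lay above both wildtype mice in 17 of the 39 (43.6%, against 22.9% of all genes), and below both in 4 (10.3%, against 23% of all genes). With each library scaled by its size only, the median of all genes moved to 0.17 and that of the 39 genes to 0.45. Without wildtype mouse 9056 the median fell to 0.12, with 24 of the 40 genes then tested positive, and without wildtype mouse 9055 it was 0.44. Signs turned for 10 of the 39 when 1 mouse was left out, for 7 of them without 9056. These were Hspg2, Itga1, Itga8, Lama2, Lamc1 and Nid2, all with a positive value, and Itga10, Lama3, Lamb1 and Lamc3, all with a negative one, so no direction is given for them.

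By edgeR's quasi-likelihood test at an FDR of 5%, 0 of the 39 genes were called at 2-fold or more, where 0.404% of all genes were called as higher and 0.13% as lower. Without the fold minimum it was again 0, against 0.555% and 0.18% of all genes. At an unadjusted p below 0.05 it gave 15 of the 39 (38.5%), against 25.1% of all genes. Called by edgeR's exact test, at the same FDR and fold, were Fn1, Itga4 and Itgb7 as higher (7.69% of the 39, against 3.03% of all genes) and Lamb3 as lower (2.56%, against 1.04%). DESeq2 called Fn1, Itga4, Itgb2 and Itgb7 as higher (10.3% of the 39, against 2.74% of all genes) and none as lower, where it called 0.907% of all genes. The likelihood ratio test called these 4 as higher and Lamb3 as lower, against 3.44% and 1.09% of all genes. At the FDR alone, the exact test added Itga5, Itgb4 and Lamb2, which made 6 higher and 1 lower (15.4% and 2.56%, against 6.16% and 3.62% of all genes). DESeq2 at the FDR alone gave 9 higher, those 3 and Itga9 and Itgb5 among them, and 0 lower (23.1% and 0%, against 6.43% and 4.3% of all genes). A permutation of the 5 mice cannot give an exact p below 0.1 for any single gene.

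**Figure D1:**
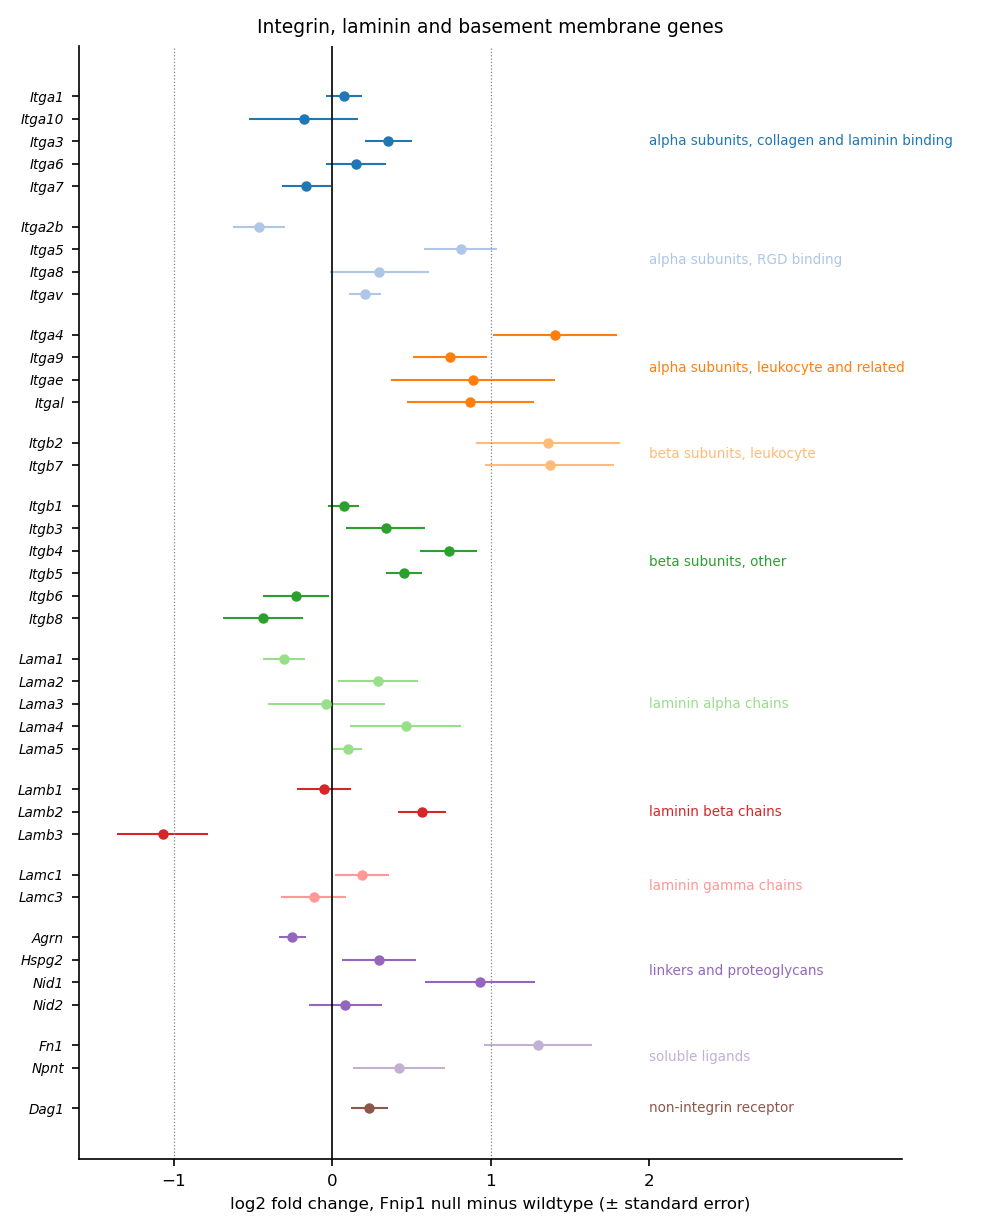
Log2 fold change (Fnip1 null minus wildtype, x axis) of 38 of the 39 tested genes, grouped by role in colour, with bars for the standard error from edgeR's quasi-likelihood test and dotted lines at a 2-fold change. Itga4, Itgb7, Itgb2 and Fn1 lie furthest to the right at 1.30 to 1.41, and Lamb3 lies furthest to the left at -1.07.

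Single mice changed these counts. By its counts over all genes, Fnip1 null mouse 8637 was closer to wildtype 9055 (chi-square per gene of 30.5) than to Fnip1 null mice 9210 (35.3) and 9121 (73.9). Without Fnip1 null mouse 8637, the quasi-likelihood test called 4 of the genes as higher (Fn1, Itga4, Itgb2 and Itgb7) and Lamb3 as lower, but then also 4.67% and 2.04% of all genes. It called 0 without mouse 9121 (0.637% and 0.336% of all genes), and without 9210, 9055 or 9056 it called 0 genes of the whole table. Under the exact test, Fn1 (higher) and Lamb3 (lower) were called without mouse 9121, against 2.4% and 1.08% of all genes. Without mouse 9055 it called Fn1, Itga5 and Nid1 as higher, against 2.45% and 0.58%. It called 0 without 9210 (1.47% and 0.471% of all genes) or without 9056 (0.686% and 0.261%), and 8 as higher with Lamb3 as lower without 8637 (6.74% and 2.4%). Wildtype mouse 9056 was the lowest of the 5 mice in 25 of the 39 genes (64.1%, against 25.7% of all genes tested). It lay below wildtype mouse 9055 in 33 of the 39, with a median log2 ratio of -0.24 against 0.0076 over all genes. Among the Fnip1 null mice, 9121 was the highest in 22 of the 39 (56.4%, against 34.0% of all genes).

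The integrins of leukocytes showed the largest differences among the receptors. Itga4, the alpha 4 chain that carries lymphocytes and monocytes onto VCAM-1 and fibronectin (chromosome 2, 79255426 to 79333123 on GRCm38), measured 4.18, 9.60 and 6.65 CPM in the Fnip1 null mice. In the wildtype mice it measured 2.92 and 2.23 CPM, so the genotypes did not overlap and 9121 was the highest. The log2 fold change was 1.41 (SE 0.39), with an adjusted p of 0.110 in the quasi-likelihood test, 0.0202 in the exact test and 0.0164 in DESeq2. Itgb7, the partner of alpha 4 in the gut-homing integrin and of alpha E (chromosome 15, 102215995 to 102231944), was at 3.18, 6.81 and 3.62 CPM against 1.68 and 1.83 in the wildtype mice. Again no Fnip1 null mouse reached down to a wildtype mouse, and 9121 lay well above the other two. Its log2 fold change of 1.37 (SE 0.40) had an adjusted p of 0.120, 0.0370 and 0.0358 in the same 3 tests.

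The promoters of these partner chains are shown because both genes were called as higher by the exact test and DESeq2. Each is the 250 bases before the annotated start of transcription in RefSeq (GRCm38.p6), written in the direction of the gene. That of Itga4 is chr2:79255176-79255425 on the plus strand and that of Itgb7 is chr15:102231936-102232185 on the minus strand.
Itga4: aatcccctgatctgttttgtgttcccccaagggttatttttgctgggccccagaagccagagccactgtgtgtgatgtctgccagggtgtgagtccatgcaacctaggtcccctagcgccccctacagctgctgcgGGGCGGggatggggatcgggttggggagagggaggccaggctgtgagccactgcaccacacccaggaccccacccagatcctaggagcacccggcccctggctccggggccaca
Itgb7: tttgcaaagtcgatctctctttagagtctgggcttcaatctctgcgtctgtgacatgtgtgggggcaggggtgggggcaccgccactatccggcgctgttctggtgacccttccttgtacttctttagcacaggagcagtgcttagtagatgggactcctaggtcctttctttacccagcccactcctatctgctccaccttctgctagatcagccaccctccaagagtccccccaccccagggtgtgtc
Capitals mark the letters GGGCGG, an Sp1 box, at -114 to -109 from the Itga4 start. These strings were searched on both strands: CACGTG, TCACGTGA (which contains the former), GGGCGG and GAGGAAGT, the last a form bound by PU.1 and other ETS factors. The Itgb7 window held none of these letter strings. Among all 32851 RefSeq windows of this length, 6.02%, 0.785%, 32.7% and 2.44% held them in that order. Of the genes described here, 27 had a window, and some had more than 1, which made 33 windows. GGGCGG was held by 15 of the 33 windows, from 12 genes. GAGGAAGT was held by 3 windows, from 3 genes (Itga11, Itgav and Itgb6), and CACGTG by 0.

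Itgb2, the beta chain shared by LFA-1 and the other leukocyte integrins (chromosome 10, 77530252 to 77565708), measured 5.06, 13.9 and 7.78 CPM in the Fnip1 null mice and 4.10 and 2.86 CPM in the wildtype mice. The genotypes were separate, but mouse 8637 was close to wildtype 9055. Its log2 fold change of 1.36 (SE 0.46) had an adjusted p of 0.144 in the quasi-likelihood test, 0.0522 in the exact test and 0.0358 in DESeq2. Itgal, the LFA-1 alpha chain, was at 4.0, 8.50 and 4.75 CPM against 3.85 and 2.46 CPM, a log2 fold change of 0.87 (SE 0.40, adjusted p = 0.233, quasi-likelihood test). Here only mouse 9121 was far from the wildtype range. Itgae, found on intraepithelial T cells and some dendritic cells, ran from 1.18 to 3.59 CPM and overlapped the wildtype mice. Itga9, which unlike the rest is also made by endothelium and smooth muscle, measured 20.7, 28.9 and 30.5 CPM against 19 and 12.9 CPM. The log2 fold change of Itga9 was 0.74 (SE 0.23), with an adjusted p of 0.131 in the quasi-likelihood test and 0.0478 in DESeq2.

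Mouse 9121, the highest in Itga4, Itgb7, Itgb2 and Itgal, also had the largest leukocyte marker sum. Without 9121, the log2 fold changes were 1.07 for Itga4, 0.95 for Itgb7, 0.89 for Itgb2 and 0.48 for Itgal. A list of 13 leukocyte markers summed to 109, 241 and 139 CPM against 134 and 107 CPM, so the sums overlapped. The macrophage receptor Csf1r carried much of that sum, with 38.2, 63.8 and 36.4 CPM against 72.3 and 68.4 CPM. Csf1r was set apart only after its values were seen. The other 12 genes summed to 70.6, 177 and 103 CPM against 61.5 and 39.0 CPM, with every Fnip1 null mouse higher. Of the 11 tested genes of the list, 10 had a positive log2 fold change, among them Ptprc, the pan-leukocyte phosphatase CD45 (1.03), and Adgre1, the macrophage antigen F4/80 (1.53). Csf1r was the exception at -0.61, and the B cell gene Cd79a had 0 counts in all 3 Fnip1 null mice. The part of these markers in the integrin values was not tested.

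**Figure D2:**
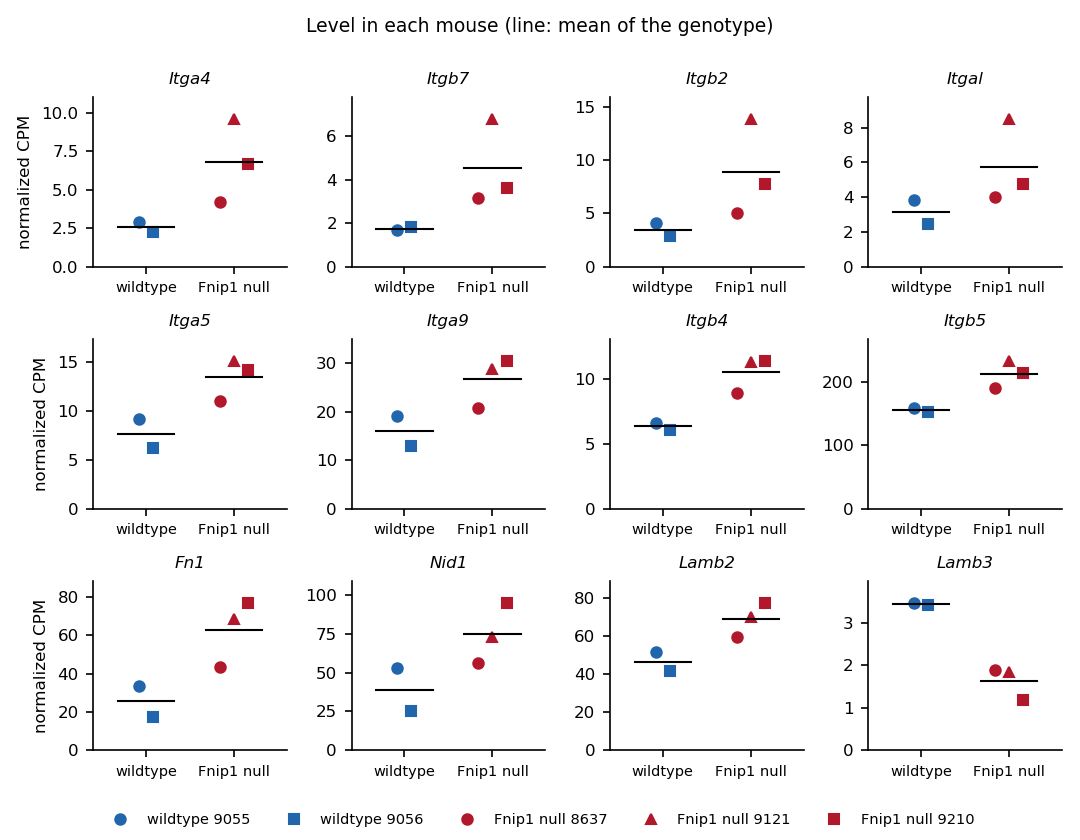
Normalized CPM (y axes, each from 0) of 12 genes in every mouse, wildtype in blue and Fnip1 null in red, with a line at the mean of the genotype and one symbol per mouse. In Itga4, Itgb7, Itgb2 and Itgal the triangle of mouse 9121 is highest, whereas in Fn1, Nid1 and Lamb2 the square of mouse 9210 is, and Lamb3 is the only panel in which wildtype is on top.

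Among the integrins that read the RGD sequence of matrix proteins, Itga5, the classical fibronectin receptor chain (chromosome 15, 103344286 to 103366763), had the largest difference. It measured 11, 15.1 and 14.2 CPM against 9.13 and 6.17 CPM, without overlap. The difference on the log2 scale was 0.81 (SE 0.23), with an adjusted p of 0.114 in the quasi-likelihood test, 0.0348 in the exact test and 0.0358 in DESeq2. Itgav, which binds vitronectin and activates latent TGF-beta, was far more abundant and differed little, at 209, 191 and 210 CPM against 184 and 168 CPM (log2 fold change 0.21, SE 0.10, adjusted p = 0.256, quasi-likelihood test). Its partner Itgb5 (chromosome 16, 33829665 to 33949338) measured 190, 233 and 214 CPM against 158 and 151 CPM, and every Fnip1 null mouse was higher. For Itgb5 the log2 fold change was 0.45 (SE 0.12), with an adjusted p of 0.103 in the quasi-likelihood test, 0.0618 in the exact test and 0.0179 in DESeq2. Itga8, the receptor for nephronectin in the developing kidney, overlapped between genotypes, with 15.5 to 23.4 CPM in Fnip1 null and 10.7 to 21.4 CPM in wildtype mice, and its log2 fold change of 0.30 was -0.12 without wildtype 9056. Itga2b, the platelet chain, went the other way, with 5.83 to 6.0 CPM against 8.88 and 7.43 CPM (log2 fold change -0.46, adjusted p = 0.160, quasi-likelihood test). A list of 4 other platelet genes summed to 1.54 to 3.06 CPM in Fnip1 null and 1.03 to 1.12 CPM in wildtype mice. All 4 were left out of the tests for low counts, with 0 to 24 counts in a mouse. Their part in the value of Itga2b was not tested.

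The common beta chain Itgb1 (chromosome 8) was nearly even, at 345, 345 and 339 CPM in the Fnip1 null mice and 335 and 317 CPM in the wildtype mice. Its log2 fold change was 0.07 (SE 0.10, adjusted p = 0.676, quasi-likelihood test). Itgb4, the hemidesmosome chain that anchors epithelium to laminin (chromosome 11, 115974709 to 116008412), measured 8.95, 11.3 and 11.4 CPM against 6.64 and 6.06 CPM. No mouse overlapped, and of the 39 genes it had the smallest adjusted p in the quasi-likelihood test, 0.0944, with 0.0236 in the exact test and 0.0284 in DESeq2. Its log2 fold change was 0.73 (SE 0.18), and leaving out any 1 mouse kept it between 0.67 and 0.84. Itgb3 had a log2 fold change of 0.34, and Itgb6 and Itgb8, both epithelial activators of TGF-beta, had -0.23 and -0.44 with overlap between the genotypes. The adjusted p of these 3 genes was between 0.320 and 0.528 in the quasi-likelihood test.

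The alpha chains for laminin and collagen differed less. Itga6, the partner of Itgb4, measured 78.6, 124 and 112 CPM in Fnip1 null and 97.4 and 91.5 CPM in wildtype mice, with mouse 8637 below and the other two above the wildtype mice. Itga3, the podocyte and tubule receptor for laminins of Lama5, was at 48.9, 65.5 and 62.0 CPM against 48.7 and 43.3 CPM, and mouse 8637 was level with wildtype 9055 (log2 fold change 0.35, SE 0.15, adjusted p = 0.198, quasi-likelihood test). Itga1, Itga7 and Itga10 overlapped between the genotypes, with log2 fold changes of 0.07, -0.16 and -0.18, of which those of Itga1 and Itga10 were -0.05 and 0.23 without wildtype 9056. For Itga10, 34.5% of the exon bases are shared with the gene model Gm42957, so its counts are uncertain. Itga2 and Itga11 had 1 to 24 counts in a mouse and were not tested.

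Of the laminin chains, Lamb2 and Lamb3 differed most and in opposite directions. Lamb2, the beta chain of the glomerular basement membrane (chromosome 9, 108479736 to 108490530), measured 59.5, 70.2 and 77.6 CPM in the Fnip1 null mice. The wildtype mice had 51.7 and 41.7 CPM, below every Fnip1 null mouse. For Lamb2 the log2 fold change was 0.57 (SE 0.15), with an adjusted p of 0.105 in the quasi-likelihood test, 0.0331 in the exact test and 0.0288 in DESeq2. Lamb3, the beta chain of the epithelial laminin of hemidesmosomes (chromosome 1, 193207699 to 193343878), had 1.88, 1.85 and 1.19 CPM against 3.48 and 3.43 CPM. Wildtype was higher in every mouse, and the counts behind these values were 32, 35 and 20 against 56 and 60. The log2 fold change of Lamb3 was -1.07 (SE 0.29), with an adjusted p of 0.107 in the quasi-likelihood test, 0.0230 in the exact test and 0.0657 in DESeq2.

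Lama3, the alpha chain of the trimer that holds Lamb3, varied more within the Fnip1 null group than between the genotypes, at 45.8, 17.7 and 25.1 CPM against 31.7 and 28.8 CPM, and its log2 fold change ran from -0.50 to 0.23 with 1 mouse left out. The large structural chains were close to even. Lama5 was at 110, 116 and 104 CPM against 106 and 99.5 CPM (log2 fold change 0.10, adjusted p = 0.531, quasi-likelihood test). Lamb1 was at 156, 205 and 178 CPM against 214 and 160 CPM, a log2 fold change of -0.05 (adjusted p = 0.867, quasi-likelihood test) whose sign turned with library size scaling, 0.11, and without mouse 8637 or 9055. Lamc1, the gamma chain of most laminins, was at 50.6, 63.4 and 67.3 CPM against 60.4 and 45.6 CPM (log2 fold change 0.19, and -0.0028 without wildtype 9056). Lama1 lay below both wildtype mice in every Fnip1 null mouse, at 36.4, 29.7 and 28.4 CPM against 37.4 and 40.4 CPM, a log2 fold change of -0.30 (SE 0.13, adjusted p = 0.217, quasi-likelihood test). Lama2, Lama4 and Lamc3 overlapped, with log2 fold changes of 0.29, 0.46 and -0.12, and each rested on single wildtype mice. Without wildtype 9056 these values were -0.05, 0.0117 and -0.35, and without wildtype 9055 they were 0.73, 1.10 and 0.15.

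Podocyte markers differed in the same direction as Lamb2. The 7 genes on that list, such as Nphs1 of the slit diaphragm, summed to 720 to 838 CPM in the Fnip1 null mice and to 403 and 406 CPM in the wildtype mice. All 7 were higher in each Fnip1 null mouse, as were 22.9% of all genes. By the quasi-likelihood test 5 of the 7 had an adjusted p below 0.05, against 0.555% of all genes as higher. The wildtype podocyte sums were level, whereas Lamb2 was at 51.7 and 41.7 CPM in wildtype 9055 and 9056. The podocyte sums, at 720, 759 and 838 CPM against 406 and 403 CPM, ranked the mice in the same order as Lamb2. So did the sums of 9 mesenchymal genes, at 306, 452 and 553 CPM against 283 and 179 CPM. The sums of 5 injured tubule genes, at 63.2, 78.1 and 85.3 CPM against 37.6 and 29.4 CPM, had that order too. Among other genes of the glomerular basement membrane, Agrn, Col4a3, Col4a4 and Col4a5 were lower in each Fnip1 null mouse, as were 23% of all genes. Their adjusted p was between 0.146 and 0.234 in the quasi-likelihood test. Col4a3, Col4a4 and Col4a5 were chosen after their values were seen. Lama5 and Lamc1 overlapped between the genotypes. The part of the podocyte, mesenchymal and injured tubule lists in the value of Lamb2 was not tested.

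Fibronectin had the largest difference outside the integrins. Fn1 (chromosome 1, 71585520 to 71653200) measured 43.6, 68.3 and 77.0 CPM in the Fnip1 null mice and 33.6 and 17.7 CPM in the wildtype mice. The genotypes did not overlap, but on a log scale the wildtype mice lay about as far apart as 8637 and 9210. Its log2 fold change was 1.30 (SE 0.34), with an adjusted p of 0.105 in the quasi-likelihood test, 0.00876 in the exact test and 0.00283 in DESeq2. It was 0.90 without wildtype 9056 and 1.83 without wildtype 9055. The other soluble ligands are nephronectin and vitronectin. Npnt, abundant in tubules, was at 133, 274 and 234 CPM against 169 and 151 CPM, so mouse 8637 lay below and the other Fnip1 null mice above both wildtype mice (log2 fold change 0.42, SE 0.29, adjusted p = 0.404, quasi-likelihood test). Vtn, made mainly in the liver, had at most 5 counts in a mouse.

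Of the nidogens, Nid1 had the larger difference. Nid1 (chromosome 13, 13437551 to 13512269) measured 56.0, 73.1 and 94.8 CPM in Fnip1 null mice against 53.0 and 25.3 CPM, with mouse 8637 just above wildtype 9055. For Nid1 the log2 fold change was 0.93 (SE 0.35), with an adjusted p of 0.173 in the quasi-likelihood test, 0.0872 in the exact test and 0.0528 in DESeq2. It was 0.49 without wildtype 9056 and 1.56 without wildtype 9055. Nid2 was at 19.7, 27.9 and 23.5 CPM against 27.4 and 17.5 CPM (log2 fold change 0.08), and its sign turned without mouse 9121 or 9056. Hspg2, which encodes perlecan, overlapped between the genotypes, with 71.0 to 81.2 CPM against 77.9 and 43.6 CPM and a log2 fold change of 0.30. It was -0.07 without wildtype 9056 and 0.77 without wildtype 9055. Agrn, the agrin of the glomerular basement membrane, was lower in each Fnip1 null mouse, at 129, 120 and 121 CPM against 146 and 148 CPM. That log2 fold change was -0.25 (SE 0.09, adjusted p = 0.146, quasi-likelihood test). Dag1, the dystroglycan that binds laminin and agrin at the cell surface, was at 229, 267 and 261 CPM against 227 and 203 CPM (log2 fold change 0.23, SE 0.12, adjusted p = 0.265, quasi-likelihood test).

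Endothelial and mesenchymal markers differed in the same direction as Fn1 and Nid1. The 7 endothelial genes summed to 322, 429 and 371 CPM against 305 and 184 CPM. For the 9 mesenchymal genes the sums were 306, 452 and 553 CPM against 283 and 179 CPM. Every gene of both lists had a positive log2 fold change, as did 50.5% of all genes. By the quasi-likelihood test, 0 of them had an adjusted p below 0.05. There, 3 of the 7 endothelial and 7 of the 9 mesenchymal genes had an unadjusted p below 0.05, against 25.1% of all genes. An adjusted p below 0.05 was reached by 1 and 4 genes in the exact test and by 2 and 5 in DESeq2. At the FDR alone these tests gave 6.16% and 6.43% of all genes as higher. Wildtype 9056 was the lowest in both lists, as in Fn1, Nid1 and 25.7% of all genes tested. Wildtype 9055 was close to 8637 in both lists and in Nid1, but further from it in Fn1, at 33.6 against 43.6 CPM. The adipocyte sum was 2.06, 23.2 and 58.9 CPM against 2.17 and 3.83 CPM, highest in 9210, the mouse with the most Fn1, Nid1 and Lamb2. Proximal tubule genes summed to 8237 to 10836 CPM in Fnip1 null and to 11399 and 12211 CPM in wildtype mice. Slc34a1 made up much of the proximal tubule sum, at 5364, 3960 and 4817 CPM against 5713 and 6341 CPM. Of the 6 genes, 3 were lower in each Fnip1 null mouse, against 23% of all genes. The genotypes overlapped in 2, and 1, Slc5a2, was higher in each Fnip1 null mouse. The 5 genes induced in injured tubules summed to 63.2, 78.1 and 85.3 CPM against 37.6 and 29.4 CPM, without overlap. Vim alone made up most of that sum, at 46.8, 69.5 and 72.8 CPM against 33.3 and 27.0 CPM. The log2 fold changes were 2.39 for Lcn2 and 1.06 for Vim (adjusted p = 0.0633 and 0.0746, quasi-likelihood test). Havcr1, at 11.1, 0.475 and 3.86 CPM against 1.99 and 1.43 CPM, overlapped (adjusted p = 0.398, quasi-likelihood test), as did Krt19. Distal nephron and hepatocyte sums overlapped between the genotypes, and Umod made up most of the distal nephron sum. All 6 distal nephron genes had a positive log2 fold change, and 4 were higher in each Fnip1 null mouse, as were 22.9% of all genes. An adjusted p below 0.05 was reached by 0 of them in the quasi-likelihood test. It was reached by 2 in the exact test and 3 in DESeq2, against 6.16% and 6.43% of all genes as higher. The part of these lists in the matrix values was not tested.

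**Figure D3:**
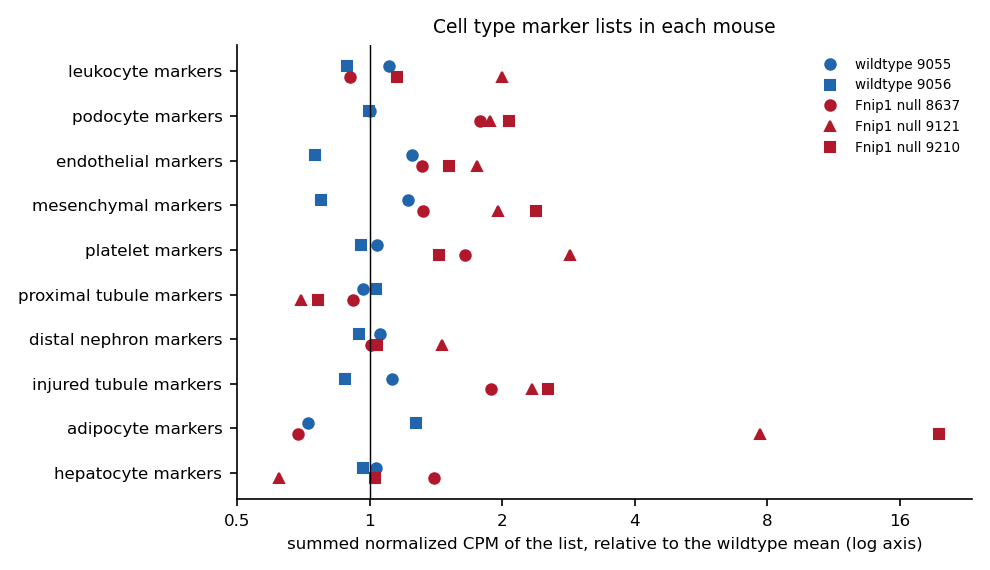
Summed normalized CPM of 10 lists of cell type markers in each mouse, divided by the wildtype mean of the list (x axis, logarithmic), wildtype in blue and Fnip1 null in red. Podocyte markers are at 1.78 to 2.07 times the wildtype mean in the Fnip1 null mice, leukocyte markers at 0.903 to 2.00 (1.41 to 3.53 without Csf1r, which is not drawn), and adipocyte markers reach 19.6 in mouse 9210.

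Levels of different genes can be set side by side only per length, and are given here as CPM per kilobase of annotated exon (mean ± SD of the 2 wildtype mice). Itgb1 was the most abundant receptor chain at 85.5 ± 3.34, followed by Itgb5 at 45.7 ± 1.45. Itgb6 and Itgb8, at 12.7 ± 0.73 and 11.6 ± 0.75, were closer to each other than the sum of their SDs. Below them came Itgb2 at 1.17 ± 0.30, Itgb4 at 0.995 ± 0.065, Itgb7 at 0.653 ± 0.040 and Itgb3 at 0.309 ± 0.0035, of which Itgb2 and Itgb4 lay within their spread. Of the alpha chains, Itgav at 25.0 ± 1.62 and Itga6 at 21.7 ± 0.97 led, and Itga4 at 0.263 ± 0.050 was near the bottom. Itga4 and Itgb7, the integrin chains with the largest log2 fold changes, were thus among the less abundant chains.

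Among laminins, Lamb1 led at 32 ± 6.53 CPM per kilobase, ahead of Lama5 at 9.01 ± 0.38, Lamb2 at 8.29 ± 1.25 and Lamc1 at 6.95 ± 1.37. Lama5 and Lamb2 lay within their spread, as did Lamb2 and Lamc1. Lamb3 was the lowest chain at 0.674 ± 0.0065, far under its partner Lama3 at 2.81 ± 0.19. Agrn, at 18.9 ± 0.14, exceeded Nid1, Nid2 and Hspg2, which were at 6.42 ± 3.22, 4.60 ± 1.43 and 4.27 ± 1.71 and lay within their spread. In the Fnip1 null mice Nid1 was at 12.3 ± 3.19 (n = 3), above Nid2 at 4.87 ± 0.84. Dag1 at 36.0 ± 2.83 and Npnt at 33.3 ± 2.73 stood in the range of Lamb1.

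**Figure D4:**
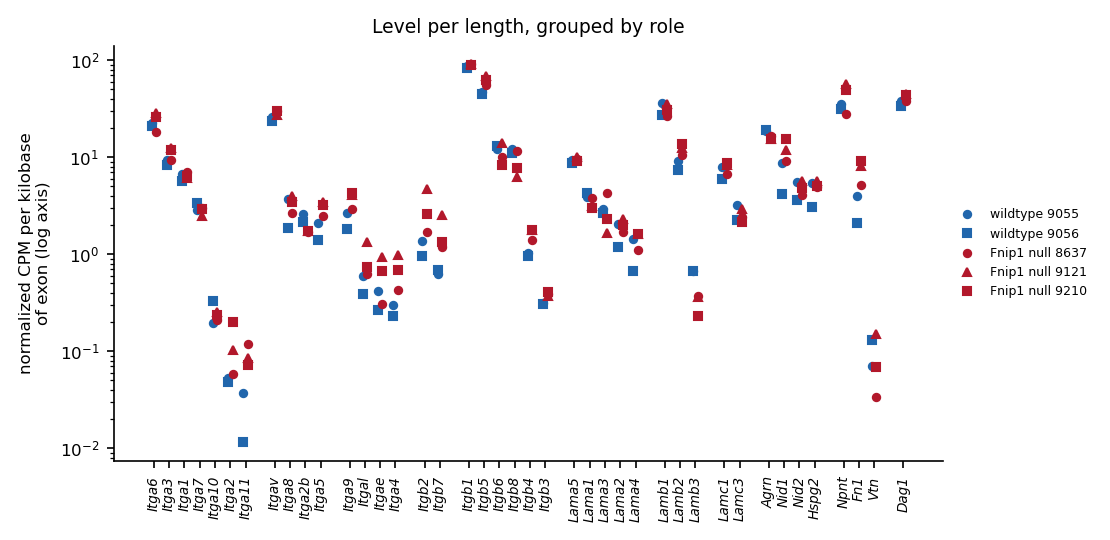
Normalized CPM per kilobase of exon (y axis, logarithmic) of 41 of the 42 genes in each mouse, grouped by role and ordered within a role by the wildtype mean. Itgb1 tops the plot at 85.5 in wildtype mice, and Itga2, Itga11 and Vtn, the genes that were not tested, lie among the lowest.

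Ratios of chains within a mouse do not depend on how libraries are scaled, and 6 were compared between the genotypes by a two-sided exact permutation test. Lamb2 to Lamb1, a pair of alternative beta chains, was 0.381, 0.342 and 0.436 in the Fnip1 null mice against 0.242 and 0.261. The wildtype mice lay together below all Fnip1 null mice, with means of 0.251 ± 0.014 (SD, n = 2) and 0.386 ± 0.047 (SD, n = 3). The mean log2 difference was 0.61 (exact permutation p = 0.1, the smallest that 3 against 2 mice allow, and 0.2 after Benjamini-Hochberg adjustment over the 6 ratios). Nid1 to Nid2 was 2.84, 2.62 and 4.03 against 1.93 and 1.44, a log2 difference of 0.89 (exact permutation p = 0.1, adjusted 0.2). Unlike the levels of Nid1 alone, this ratio in mouse 8637 stood clear of wildtype 9055.

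Itgb1 to Itgb2, matrix against leukocyte beta chain, was 68.1, 24.9 and 43.6 in the Fnip1 null mice and 81.8 and 111 in the wildtype mice, a log2 difference of -1.18 (exact permutation p = 0.2). Mouse 9121, with the largest leukocyte marker sum, had the smallest ratio. Lama5 to Lama1 was 3.02, 3.90 and 3.65 against 2.83 and 2.47, a log2 difference of 0.41 (exact permutation p = 0.2). Lamc1 to Lamb1 and Itga3 to Itga6 had log2 differences of 0.24 and 0.22 (exact permutation p = 0.2 for each). In all 6 ratios the genotypes did not overlap, so leaving out any 1 mouse could not turn the direction. Of all single genes, 22.9% were higher and 23% lower without overlap, and the share among ratios of other gene pairs was not computed. The ratios are not independent, since Lamb2 to Lamb1 and Lamc1 to Lamb1 share a chain. All 6 ratios had an adjusted p of 0.2, so none passed the correction.

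**Figure D5:**
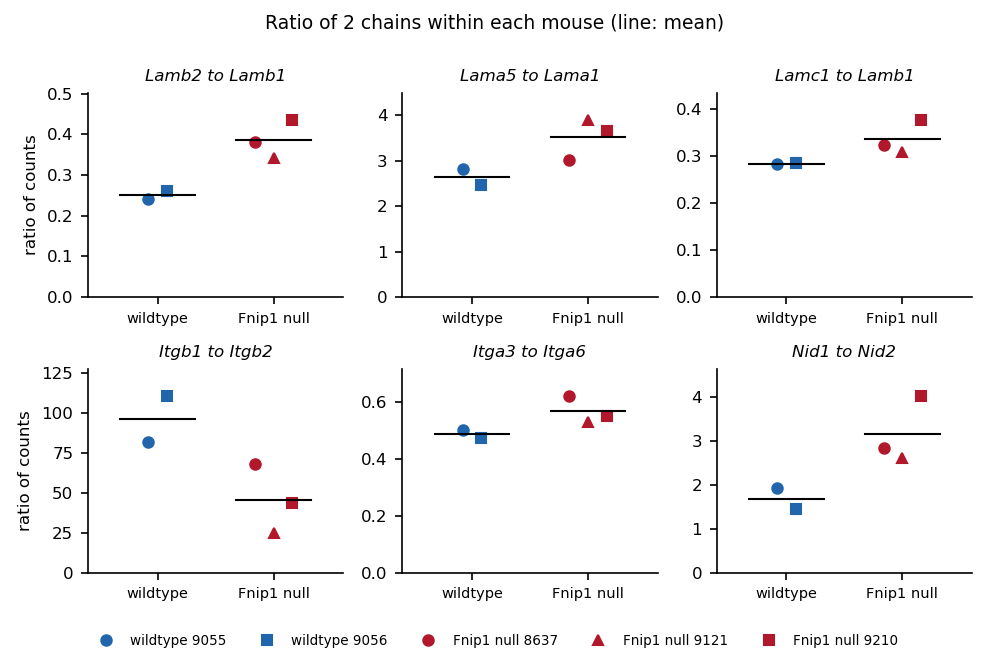
Ratio of the normalized CPM of 2 chains within each mouse (y axes, each from 0), wildtype in blue and Fnip1 null in red, with a line at the mean of the genotype. Lamb2 to Lamb1 is at 0.242 and 0.261 in the wildtype mice and at 0.342 to 0.436 in the Fnip1 null mice.

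The other genes of these pathways were taken as 6 lists with 64 tested genes. A single one, Spp1, which encodes osteopontin, an RGD ligand secreted by tubules, was called by the quasi-likelihood test. Spp1 measured 1904, 2634 and 2772 CPM against 794 and 813 CPM, with no overlap. It rose by 1.6 on the log2 scale (SE 0.21, adjusted p = 0.0403, quasi-likelihood test). The adjusted p was 0.0506 with the newer form of that test, and between 0.175 and 0.527 without mouse 9210, 9055 or 9056. By the exact test and by DESeq2, 5 of the 64 were called as higher and none as lower: Spp1, Itgam, Itgax, Sparc and Fbn1. The exact test called 3.03% of all genes as higher and 1.04% as lower, and DESeq2 2.74% and 0.907%.

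Itgax and Itgam, the CD11c and CD11b chains that pair with Itgb2, fall outside the symbols chosen above. Itgax measured 4.83, 5.75 and 5.05 CPM against 2.11 and 1.49 CPM, a log2 fold change of 1.54 (SE 0.26) with an adjusted p of 0.0622 in the quasi-likelihood test and 0.000119 in the exact test. Unlike Itgb2, it was about level in the 3 Fnip1 null mice. Itgam was at 2.89, 4.43 and 2.79 CPM against 1.49 and 1.03 CPM (log2 fold change 1.42, adjusted p = 0.0975 in the quasi-likelihood test), but 70% of its exon bases are shared with the gene model Gm49368. Itgad had at most 1 count in a mouse.

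The 26 adaptors and adhesion complex genes that join integrins to actin showed little difference, with a median log2 fold change of 0.06 and none called by any of the 3 tests. At an unadjusted p below 0.05 the quasi-likelihood test gave 5 of the 26, not more than the 25.1% of all genes. Fermt3, the kindlin of blood cells, had the largest value at 0.81, next to Parvg, the parvin of blood cells, at 0.71, and both overlapped between the genotypes. Actn1, an actinin, had 0.47 without overlap (adjusted p = 0.120, quasi-likelihood test). Tln1, the talin that activates integrins, was at -0.29 and lower in each Fnip1 null mouse.

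The collagen IV chains were not called. The widespread chains Col4a1, which overlapped between the genotypes, and Col4a2, which did not, had log2 fold changes of 0.32 and 0.41, with adjusted p of 0.260 and 0.174 in the quasi-likelihood test. Col4a3, Col4a4 and Col4a5 form the mature glomerular network and are mutated in Alport syndrome. They were below both wildtype mice in each Fnip1 null mouse, as were 23% of all genes. Their log2 fold changes were -0.35, -0.40 and -0.18. Col4a6 overlapped and had 0.31, which was -0.18 without wildtype 9056. None of the 8 basement membrane collagens was called by the 3 tests, and 4 had an unadjusted p below 0.05 in the quasi-likelihood test, where 25.1% of all genes did. Col18a1 passed the FDR alone in DESeq2, with a log2 fold change of 0.49 (adjusted p = 0.0313), and Col15a1 had the largest value at 0.88 with overlap.

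Of 10 other basement membrane genes, Sparc, a collagen-binding matricellular protein, was at 179, 250 and 362 CPM in Fnip1 null and 149 and 106 CPM in wildtype mice. Its log2 fold change was 1.05 (SE 0.31), with an adjusted p of 0.122 in the quasi-likelihood test, 0.0273 in the exact test and 0.00982 in DESeq2. Of the Fraser complex genes, Frem1 was at 1.13 and Fras1 at -0.67, both without overlap, and Frem2 was at -0.17 with overlap. Frem1 was at 0.63 without wildtype 9056 and at 1.85 without wildtype 9055. Fbln1, which encodes fibulin-1, had 0.84 with overlap. Among 9 tested ligands, Fbn1, which encodes fibrillin-1, had a log2 fold change of 1.07 (adjusted p = 0.132 in the quasi-likelihood test and 0.0400 in the exact test). Vcam1, the ligand of the Itga4 integrins on endothelium, had 0.89 with overlap, while Icam1, the ligand of LFA-1, had 0.60 without. Of 9 tested partners of dystroglycan none was called, and Sgce, Dmd and Pomt1 had the largest values, 0.98, 0.45 and -0.41.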

How the data were processed

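RNA from flash-frozen cortical kidney tissue of 5 mice was sequenced by the authors from paired ends on an Illumina HiSeq. Reads of low quality were filtered, the rest were aligned to mm10 with TopHat (version 2.1.0 in the submitters' processing notes), and HTSeq 0.6.1 counted them by gene symbol. The deposited values are these counts, 1 table per mouse, without normalization. The annotation and strand setting of the counting are not given in the sources used here, so reads from an antisense gene cannot be told apart. Between 39.0% and 42.8% of the records were on no gene and were left out.

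Genes with fewer than 10 counts in more than 2 mice were removed, which left 13874. The genotypes were compared with the quasi-likelihood test of edgeR 4.0.16 (R 4.3.3) at its defaults, with TMM factors of 0.914 to 1.09 and Benjamini-Hochberg adjustment over all of these genes, and a gene was called at an FDR of 5% and 2-fold. Alternatives were the exact and likelihood ratio tests of edgeR, DESeq2 1.42.0, other scalings and filters, and each mouse left out. The newer form of the quasi-likelihood test (legacy=FALSE) and the exact test without each mouse were added after seeing the data. The tests were tested on simulated data. No 2 libraries were as close as sampling noise.

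The members and all lists and motifs were chosen with earlier results of these data known. Values per mouse are given for genes past an FDR of 5% in any of 3 tests, genes without overlap whose log2 fold change was at least 0.5 in size, the highest gene of each role, chains in a ratio, and Lama3. In the 6 pathway lists, genes past an FDR and the 3 largest changes of each list were named. Tln1, Fras1, Frem2, Icam1 and the chains Col4a1, Col4a3, Col4a4, Col4a5 and Col4a6 were chosen after their values were seen. The leukocyte sum without Csf1r was also added after the values were seen. Coordinates and exon lengths are those of GENCODE M21 (GRCm38), and promoters those of RefSeq. Proteins were not analysed here, and 1 tested member counts in the totals but is not reported here by itself.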

Additional observations from a re-analysis of the deposited data

How the results depend on the processing

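The counts of called genes depended on the test. Over all genes, the quasi-likelihood test called 74, the exact test 565, the likelihood ratio test 628, DESeq2 487 and the quasi-likelihood test without a filter on low counts 145. Leaving out 1 mouse gave 0 to 948 genes, and with the exact test 1292 without 8637, 486 without 9121, 272 without 9210, 428 without 9055 and 134 without 9056. Of the integrin, laminin and basement membrane genes, 0 were called as higher by the quasi-likelihood test, 3 by the exact test, 4 by the likelihood ratio test and 4 by DESeq2, and 0 to 8 with 1 mouse left out. Lower were 0 by the quasi-likelihood test and DESeq2, 1 by the exact and 1 by the likelihood ratio test, and 0 to 1 with 1 mouse left out. Of the pathway genes, 1 was called by the quasi-likelihood test, 5 by each of DESeq2 and the exact and likelihood ratio tests, 2 without a filter and 0 with legacy=FALSE, and 0 to 11 with 1 mouse left out. The median log2 fold change of the described genes was 0.45 with library size only, where all genes had 0.17, and 0.12 to 0.44 with 1 mouse left out. Signs turned for Lamb1 (0.11 with library size only, and -0.25 to 0.17 with 1 mouse left out), Lamc1 (-0.0028 to 0.40 with 1 mouse left out) and Nid2 (-0.21 to 0.44 with 1 mouse left out). With Hspg2, Itga1, Itga8, Itga10, Lama2, Lama3 and Lamc3, 10 of the 39 turned with 1 mouse left out, and 3 (Lama3, Lamb1 and Lamc3) with library size only. The cause was not tested. The 6 ratios kept their direction in all 36 alternatives, but without overlap leaving out 1 mouse could not turn it. Leaving out a wildtype mouse leaves 1 in that group, which is then assumed to vary like the Fnip1 null mice. No paired analysis was possible because the mice carry no shared replicate numbers. Genes under about 0.2 CPM were near the limit of 3 counts, and Itga10, Itgae and Lamb3 rest on 16 to 68 counts a mouse. Itgb3 had 29 to 41 counts. The leukocyte chains were also low in wildtype 9055 and 9056, with 27 and 32 counts for Itgb7 and 47 and 39 for Itga4. Itgb2 had 66 and 50 counts there and Itgal 62 and 43.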
